A study of Mus musculus with 8 samples.

Results

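The AP-1 family genes examined here were the 10 genes Fos, Fosb, Fosl1, Fosl2, Jun, Junb, Jund, Atf3, Batf and Maff. They were chosen by name, and each was given the differential H3K27ac regions inside the gene, those for which it had the nearest protein-coding start, and those centred within 200 kb of one of its starts. This gave 30 of the 11179 differential regions placed on chromosomes 1 to 19, X and Y. H3K27ac, the acetylation of histone H3 at lysine 27 that marks active promoters and enhancers, had been mapped by CUT&RUN, which cuts out and sequences the DNA around an antibody bound in intact nuclei. Regions were compared between primary myotubes lacking Nrip1 (KO), which encodes the nuclear receptor coregulator RIP140, and WT control (Ctrl) myotubes, with 2 H3K27ac libraries and 2 IgG libraries per genotype. The myotubes came from the striated muscle KO line of the study, floxed Nrip1 mice (C57BL/6J) with Cre recombinase under the muscle creatine kinase (MCK) promoter, and Cre-negative littermates served as controls. The labels give no age for the donor mice, and the study used young adults. Both genotypes were satellite cells from gastrocnemius muscle, expanded in medium with serum, EGF, insulin and dexamethasone and then differentiated for 4 days, with nuclei pooled before they were divided between antibodies. Peaks that differed by at least 2-fold in intensity had been listed by direction, and these lists hold positions with no value per library. The size of each change, the depth and the spread between replicates are therefore unknown, and nothing here measures whether the replicates behaved alike.

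AP-1 is a transcription factor made of paired basic leucine zipper (bZIP) proteins that bind the sequence TGAGTCA or its reverse complement TGACTCA. Fos proteins pair with Jun proteins, whereas Jun proteins can also pair with each other. Several of these genes are immediate early genes, switched on within minutes by serum, growth factors, stress or muscle contraction. In muscle cells, AP-1 is known for its activity in proliferating and injured myoblasts and for interfering with the myogenic factor MyoD.

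Of the 30 regions, 28 were decreased and 2 were increased in KO myotubes. Decreased regions were found for 9 of the 10 genes by this rule, and increased regions for Fosb alone. Among all 21938 protein-coding genes, the same rule found a decreased region for 57.7%, an increased region for 37.7%, and decreased regions without any increased one for 37.1%. Increased regions made up 6.67% of the regions of the family (95% exact binomial interval, 0.818 to 22.1, counting error only), compared with 35.0% of all regions, the other 65.0% being decreased. Both increased regions lay on chromosome 7, where 2.31% of 996 regions were decreased. No test was made of these differences, because neighbouring regions share a locus and the genes were chosen with results of these data known.

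Regions that had a member as the nearest protein-coding gene numbered 6, and all 6 were decreased. They belonged to 5 genes, with 2 regions for Fos and 1 each for Fosl2, Jun, Batf and Maff. Across all protein-coding genes, 18.8% had a decreased region and 11.3% an increased region inside the gene or nearest to its start. The stretches of 150 bases below show, for 5 of these 6 regions, the part with the most matches to the motifs searched, with each match in capitals. They are given on the plus strand of mm10, and none overlaps an annotated untranslated region. The capitals mark a TEAD motif at Fos and Maff, an AP-1 motif at Batf, an E-box at Fosl2, and an E-box followed by a MEF2 motif at Jun.

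Fos, chr12:85522361-85522510: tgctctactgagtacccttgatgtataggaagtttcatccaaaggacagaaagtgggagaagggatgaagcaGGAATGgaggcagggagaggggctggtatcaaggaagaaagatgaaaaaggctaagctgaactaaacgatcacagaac
Batf, chr12:85648471-85648620: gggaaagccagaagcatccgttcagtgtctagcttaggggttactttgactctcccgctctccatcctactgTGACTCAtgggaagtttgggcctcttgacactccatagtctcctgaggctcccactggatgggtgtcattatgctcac
Maff, chr15:79351846-79351995: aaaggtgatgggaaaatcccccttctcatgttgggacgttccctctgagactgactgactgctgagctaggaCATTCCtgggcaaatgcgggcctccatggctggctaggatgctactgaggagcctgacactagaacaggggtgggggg
Fosl2, chr5:32149291-32149440: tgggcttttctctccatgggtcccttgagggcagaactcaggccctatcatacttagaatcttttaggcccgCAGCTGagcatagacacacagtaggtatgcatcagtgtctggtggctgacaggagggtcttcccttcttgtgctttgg
Jun, chr4:95283820-95283969: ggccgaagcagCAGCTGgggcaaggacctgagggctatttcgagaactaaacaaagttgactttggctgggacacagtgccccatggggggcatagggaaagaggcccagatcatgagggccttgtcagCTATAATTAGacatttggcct

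**Figure D1:**
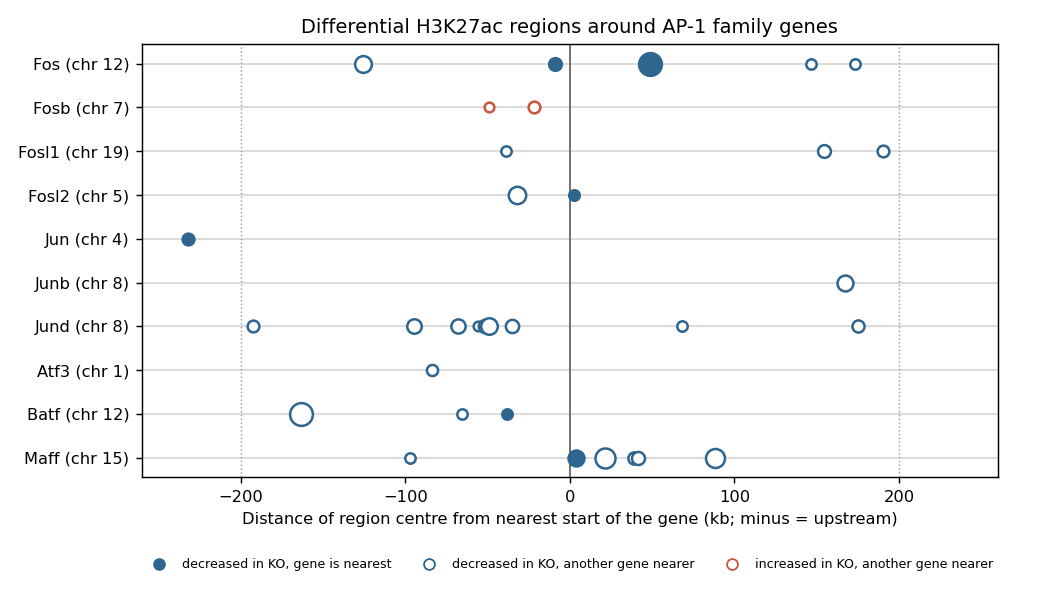
Differential H3K27ac regions around each of the 10 AP-1 family genes, with the distance of the region centre from the nearest start of the gene on the x axis in kb (minus is upstream) and 1 row per gene. Point area grows with region width, filled points are regions for which the gene is the nearest protein-coding gene, open points are nearer to another gene, and dotted lines mark 200 kb. The 6 filled points are all decreased in KO, and the only increased points are the 2 in the Fosb row.

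The Fos proteins were taken first. Fos (chromosome 12, 85473890 to 85477273, plus strand), the prototype immediate early gene of the family, had 5 decreased regions and no increased one, and 12.3% of protein-coding genes had at least 5. The closest was an intergenic region of 1130 bp (85464126 to 85465255) centred 9200 bp upstream, and none of the 8 motifs searched was found in it. The largest was an intergenic region of 4406 bp (85521183 to 85525588) centred 48474 bp downstream of the start, joined by HOMER from 2 peaks. Only 1.82% of all decreased regions were at least as wide. It held 4 TEAD motifs, of which 1 is shown above, and 2 E-boxes.

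Batf encodes a bZIP protein that pairs with Jun proteins and is best known from lymphocytes. It lies on the same strand beyond Fos (85686669 to 85709087), so that 3 regions fell within 200 kb of both genes. These were the 3 decreased regions of Batf, a number that 27.7% of protein-coding genes reached. Its nearest region was an intergenic stretch of 641 bp (85647993 to 85648633), decreased and centred 38356 bp upstream, which carries the AP-1 motif shown above. A further decreased region of 626 bp (85621036 to 85621661) lay in an intron 19126 bp from the start of Jdp2, another bZIP gene that sits between Fos and Batf. The closest increased region was 221894 bp from Fos and 434673 bp from Batf. On chromosome 12, 71.7% of regions were decreased.

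Fosl2 encodes Fra-2, a Fos protein. It lies on the plus strand of chromosome 5 from 32135801 to 32157842, where 69.7% of regions were decreased. A decreased region of 658 bp (32149031 to 32149688) lay in its intron, 2838 bp beyond an annotated start, and holds the E-box shown above. A second decreased region of 2419 bp (32102210 to 32104628) lay 32382 bp upstream and contained an AP-1 motif and 3 E-boxes. Its nearest start was that of Babam2, at 23722 bp. Of all protein-coding genes, 39.9% had at least 2 decreased regions.

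Fosl1, which encodes Fra-1, lies on chromosome 19 (5447547 to 5455946, plus strand), where 61.3% of regions were decreased. It was nearest to no differential region. At least 3 decreased regions were found for 27.7% of protein-coding genes. The 3 in the window of Fosl1 were nearest to Tsga10ip, Rnaseh2c and Rela. The last of these, a region of 904 bp (5637882 to 5638785), was centred 374 bp from a start of Rela, which encodes the p65 subunit of the transcription factor NF-kB, and 190412 bp from Fosl1. It carried 4 AP-1 motifs, a number that 0.152% of all differential regions reached. The 4 sites are given with 10 bases on either side, the motif in capitals, because they are the densest group of this motif in the regions of the family. The third of them lies in sequence marked as repeated in the genome file. All 4 read TGACTCAgt, so the likeness of the sites extends beyond the motif.

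Rela site at chr19:5638000-5638026: cgagggggtcTGACTCAgttacccctc
Rela site at chr19:5638033-5638059: gagggcgcctTGACTCAgtgtccctcc
Rela site at chr19:5638156-5638182: agaaagtatcTGACTCAgtttccccag
Rela site at chr19:5638232-5638258: aaacaggcacTGACTCAgtttcccctg

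Fosb (chromosome 7, 19302696 to 19310051, minus strand) differed from the other genes in direction, as did its chromosome. The 2 regions in its window were increased, and both lay upstream. A region of 898 bp (19331075 to 19331972) was centred 21472 bp from Fosb in an intron, with Ercc1, a DNA repair gene, as nearest gene at 13255 bp. The other, of 501 bp (19358716 to 19359216), lay 48915 bp from Fosb and 515 bp from a start of Cd3eap. No AP-1 motif was found in either, and each held 1 TEAD motif. The closest decreased region was 511718 bp away. Whether these increases are particular to the locus cannot be told apart from the imbalance of chromosome 7.

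Among the Jun proteins, Jun itself (chromosome 4, 95049034 to 95052222, minus strand) had no region within 200 kb. It was counted through 1 intergenic region of 912 bp (95283686 to 95284597), decreased and centred 231919 bp upstream, for which it was still the nearest protein-coding gene. Besides the E-box and the MEF2 motif shown above, this region held a TEAD motif and a match to TCAAGGTCA, the motif of estrogen-related receptors (ERR), nuclear receptors with which RIP140 is known to act. The ERR match is on the minus strand and is shown with 10 bases on either side. An ERR match was present in 3.37% of all decreased regions. Of the 877 regions on chromosome 4, 92.5% were decreased. At least 1 decreased region, the number at Jun, Junb and Atf3, was found for 57.7% of protein-coding genes.

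Jun site at chr4:95284064-95284092: ggtgtttgctTGACCTTGAtgataataca

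Junb and Jund both lie on chromosome 8, where 75.3% of regions were decreased. Neither was nearest to any differential region. Junb (84974484 to 84978718, minus strand), an immediate early gene, had 1 decreased region of 1959 bp (84808274 to 84810232) at 167289 bp. That region contained 6 E-boxes and was nearest to Nfix, a transcription factor gene of fetal muscle, whose start was 8909 bp away.

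Jund (70698949 to 70700616, plus strand), the most steadily expressed Jun gene, had 9 decreased regions in its window and no increased one. As many decreased regions or more were found for 2.72% of protein-coding genes. The closest was centred 34927 bp upstream. Of the 9 regions, 3 were nearest to Pgpep1, 2 to Gdf15 and 1 to Ccdc124. Gdf15 encodes a stress-induced hormone, and 1 of its regions (70630396 to 70631896, 1501 bp) was centred 949 bp from its start. An AP-1 motif was present in 3 of these regions, between 49270 and 55825 bp upstream of Jund. They are shown because they stand together within this stretch.

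Gdf15 site at chr8:70643174-70643200: caactgtgggTGACTCAgcagggactc
Pgpep1 site at chr8:70646833-70646859: gactccccccTGAGTCAccttgcccac
Pgpep1 site at chr8:70650533-70650559: gaggggcagaTGAGTCAggatggcccc

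Atf3, a stress-induced bZIP gene whose protein can repress transcription or pair with Jun, lies on chromosome 1 (191170296 to 191218039, minus strand). It was nearest to no differential region. Its window held 1 decreased region of 792 bp (191301629 to 191302420), 83985 bp upstream and 16170 bp from the start of Nenf. On chromosome 1, 68.5% of regions were decreased.

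Maff encodes a small Maf protein, which has a bZIP domain and no transactivation domain. It lies on chromosome 15 (79346621 to 79359076, plus strand), where 73.6% of regions were decreased. It had 6 decreased regions and no increased one within 200 kb, a number of decreased regions that 8.37% of protein-coding genes reached. A region of 1968 bp (79351050 to 79353017) lay in its intron, centred 3631 bp from a start, and holds the TEAD motif shown above. The next, of 3315 bp (79368002 to 79371316), was centred 21257 bp downstream and 334 bp from a start of Tmem184b. It contained 1 AP-1 motif, 6 E-boxes and 3 TEAD motifs. In all, 3 of the 6 regions were nearest to Tmem184b, and the closest increased region was 1579795 bp from Maff.

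None of the 10 genes had a differential region centred within 1 kb of an annotated start. The closest regions were those inside Fosl2 and Maff and the one upstream of Fos. Among all protein-coding genes, 2.78% had a decreased and 2.32% an increased region centred within 1 kb of a start. The lists hold only regions that differed, so they do not show whether these promoters carried the mark.

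The distance from each gene to the closest region of each direction was compared next. The median distance to a decreased region was 38.7 kb for the family and 138.0 kb for protein-coding genes on chromosomes with such regions. To an increased region it was 540.3 kb for the family and 337.2 kb for protein-coding genes. The closest decreased region lay nearer than the closest increased one at each gene except Fosb. The share of all protein-coding genes for which this holds was not computed, and 65.0% of all regions were decreased. Within 1 Mb of a start of any member, 154 regions were found, of which 129 were decreased and 25 increased. Without the neighbourhood of Fosb these were 128 and 11. Jund had 27 decreased and 1 increased region within 1 Mb, and Maff 24 and 0. Atf3 had 10 and 3, whereas Fosb had 1 and 14.

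**Figure D2:**
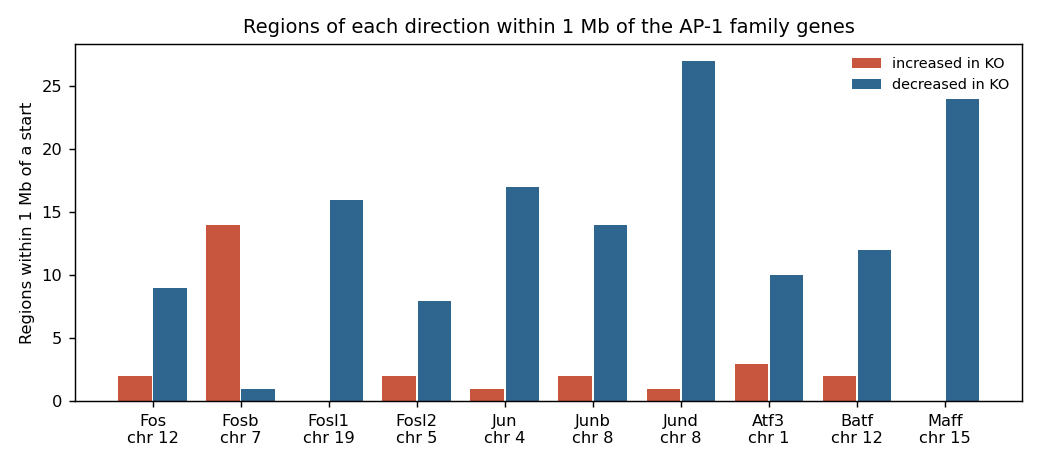
Number of differential regions of each direction (y axis) within 1 Mb of a start of each AP-1 family gene (x axis, with its chromosome). Decreased regions outnumber increased ones at each gene except Fosb, which has 14 increased regions and 1 decreased. Of all differential regions, 65.0% were decreased. The share of all protein-coding genes at which decreased regions outnumber increased ones was not computed.

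The width, GC content and position of the regions were then described. Position is not independent of the assignment, which used distance to gene starts. The 28 decreased regions had a median width of 1138 bp, with a range of 501 to 4406 bp, compared with a median of 864 bp over all 7262 decreased regions. Their GC content was 53.2% ± 4.65 (SD over 28 regions), ranging from 45.3% to 62.0%, and that of all decreased regions was 48.0% ± 5.28 (SD). Promoter-proximal positions, with the centre within 1 kb of the start of any annotated gene, were held by 7 of the 28 regions (25.0%) and by 11.2% of all decreased regions. All 7 were promoters of other genes, Rela and Gdf15 among them. Of the 6 regions inside a member or nearest to it, 0 were promoter-proximal. Their mean GC content was 49.5% and their median width 1021 bp. Introns held 9 of the 28, intergenic sequence 9 and untranslated regions 3.

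Sequence motifs were searched on both strands over the whole width of each region. The AP-1 motif (TGAGTCA or TGACTCA) was present in 8 of the 28 decreased regions (28.6%, exact binomial interval 13.2 to 48.7) and in 24.7% of all decreased and 25.6% of all increased regions. Its 11 matches, 0.273 per kb, overlapped no match of another motif. The density was 0.253 per kb in all decreased and 0.3085 per kb in all increased regions. The E-box CAGCTG bound by MyoD was found in 17 of 28 (60.7%, interval 40.6 to 78.5), compared with 57.4% of all decreased regions. The TEAD motif (GGAATG) was found in 15 (53.6%, interval 33.9 to 72.5), compared with 46.9%. ERR and MEF2 motifs were each found in 2 of the 28 regions (7.14%), compared with 3.37% and 2.7% of all decreased regions. The serum response CArG box was found in 1 (3.57%), compared with 5.74%. The cyclic AMP element TGACGTCA and the glucocorticoid receptor motif were found in none, which leaves a share of up to 12.3% for each (upper exact limit). Of all decreased regions, 0.757% held the former and 1.32% the latter. The shares over all decreased regions lay within the interval of the family for each of the 8 motifs. An ERR match in an increased region upstream of Fosb and one in a region upstream of Jund lie in sequence marked as repeated, whereas the match shown for Jun does not.

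**Figure D3:**
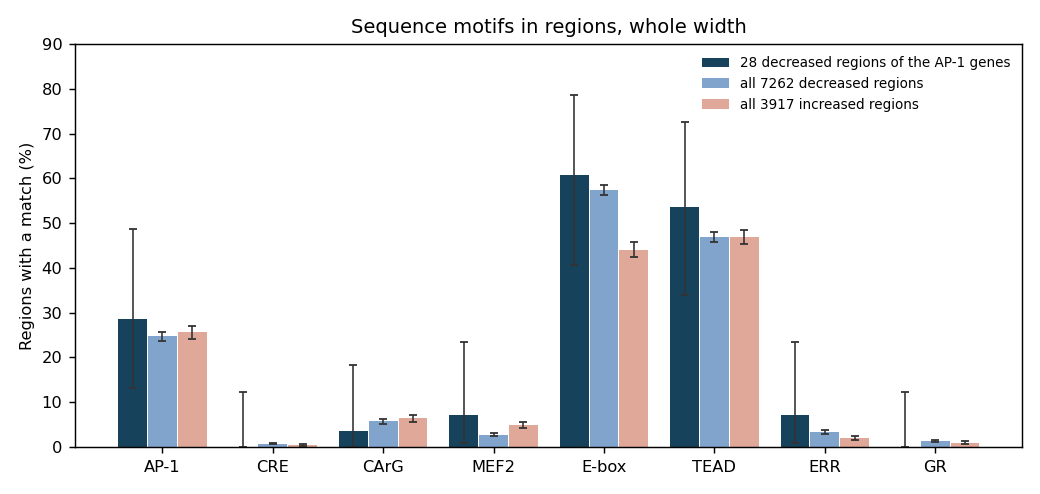
Percent of regions with at least 1 match (y axis) for the 8 motifs searched (x axis), in the 28 decreased regions of the AP-1 family genes, in all 7262 decreased regions and in all 3917 increased regions. Error bars are exact 95% binomial intervals for counting error over regions, and the intervals of the 28 regions span the value of all decreased regions for each motif.

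The promoters of the genes themselves were searched in the same way, over RefSeq sequences of 300 bases (GRCm38.p6, 1 to 3 per gene) that were found for 9 of the 10. The counts are of genes, each with 1 to 3 sequences, whereas the shares are of single promoter sequences. None of the 9 held the AP-1 motif, which 5.20% of all 32851 promoters held, or the CArG box, which 1.63% held. Jun and Atf3 held a MEF2 motif (0.557% of all promoters), Maff a TGACGTCA element (1.79%), and Fos, Junb and Jund an E-box (16.3%). Jund also held the glucocorticoid receptor motif (0.222%), and TEAD and ERR motifs were found in none of the 9. These matches are descriptions of sequence in a short window and do not show binding.

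Other genes of the pathway were counted by the same rule, a region inside the gene or nearest to its start. Over all protein-coding genes, this rule found a decreased region for 18.8% and an increased region for 11.3%. Directions were unbalanced on chromosomes 4 and 16, where 92.5% and 92.2% of regions were decreased, and on chromosomes 7 and 10, where 2.31% and 30.9% were. On the other autosomes the share was between 55.1% and 83.8%. Counts were therefore also made outside these 4 chromosomes, a restriction chosen after seeing the data, and there 19.2% of protein-coding genes had a decreased and 10.3% an increased region.

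Of 27 immediate early genes and their regulators, 14 had a decreased region (51.9%) and 6 an increased one (22.2%), 4 of them both. Outside the 4 chromosomes, 10 of 19 had a decreased and 4 an increased region. Myc, which drives growth and proliferation, had 10 decreased and 4 increased regions, with the closest of each 111438 and 3256 bp from a start. The serum response coactivators Mrtfb, on chromosome 16, and Mrtfa had 7 and 3 decreased regions, the closest 22565 and 1153 bp from a start. Klf4, on chromosome 4, had 3 decreased regions, the closest at 164186 bp. Increased regions were assigned to Klf6 (5 regions, the closest 118521 bp from a start, beside 1 decreased) and to Ccn1 (1 region, at 16584 bp). Ccn2 on chromosome 10 had 1 increased region, at 666 bp, beside 2 decreased. The distant regions were counted because no other protein-coding start was nearer.

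Of 27 other bZIP genes, 8 had a decreased (29.6%) and 6 an increased region (22.2%), and outside the 4 chromosomes 6 and 4 of 20 did. Maf, a large Maf factor, had 11 decreased regions, the closest 61899 bp from a start, and 1 increased. Bach2, a repressor that pairs with small Maf proteins and lies on chromosome 4, had 5 decreased regions. Atf1, a relative of CREB, had 2 increased regions, the closer of them 452 bp from a start. Among 28 MAP kinases, upstream kinases and MAP kinase phosphatases, which carry growth factor and stress signals to AP-1, 10 had a decreased (35.7%) and 8 an increased region (28.6%). Outside the 4 chromosomes, 7 and 6 of 21 did. Dusp10, a phosphatase of stress kinases, had 4 decreased regions and 1 increased, the increased one 242627 bp from a start. Mapk10 (JNK3) had 2 increased, the closest at 34051 bp.

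Of 24 genes known as AP-1 targets, 8 had an increased region (33.3%) and 5 a decreased one (20.8%), the latter near the share over all genes. Ptgs2, the inducible cyclooxygenase, had 5 increased regions, the closest 258 bp from a start. Lif, a cytokine of muscle regeneration, had 1 increased and 4 decreased regions, and Vegfa had 5 decreased, the closest 95168 bp from a start. Ccnd1 and Fgf21 had 1 increased region each, both on chromosome 7. Outside the 4 chromosomes, 4 of 20 targets had an increased and 4 a decreased region (20.0% each). With the 200 kb window added, a decreased region was found for 9 of 10 AP-1 family genes and 57.7% of all protein-coding genes. So it was for 23 of 27 immediate early, 22 of 27 other bZIP, 21 of 28 MAP kinase and 7 of 24 target genes. An increased region was found for 1, 8, 8, 11 and 13 genes of these lists, in the same order, and for 37.7% of all genes. The differences between lists were not tested.

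**Figure D4:**
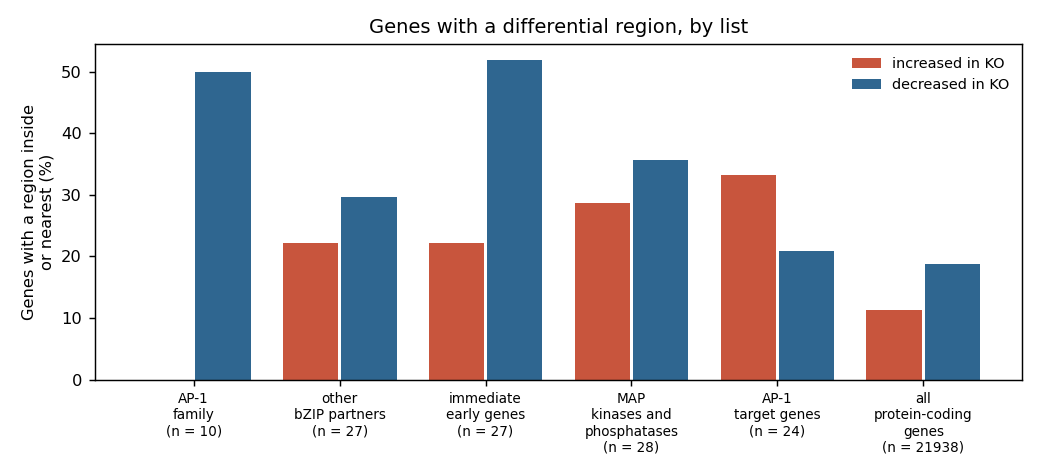
Percent of genes with at least 1 increased or decreased region inside the gene or nearest to its start (y axis) for the AP-1 family, 4 lists of other pathway genes and all protein-coding genes (x axis, with the number of genes). For the AP-1 family the values are 0% increased and 50.0% decreased, and for all protein-coding genes 11.3% and 18.8%.

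Nrip1 itself (chromosome 16, minus strand) contained 2 decreased regions and no increased one. On that chromosome 92.2% of regions were decreased, so this cannot serve as a check of the lists. The mark also does not measure the deletion itself. Marker counts are small and are to be read against the 18.8% of all genes with a decreased and the 11.3% with an increased region. Of 9 myotube markers, 2 had an increased region (Mef2c and Myh3) and none a decreased one. Of 3 myoblast and satellite cell markers, Pax7 on chromosome 4 had 8 decreased regions and Myf5 on chromosome 10 had 1 increased, and none of the 3 lies outside the 4 unbalanced chromosomes. Fibroblast markers had 1 increased and 2 decreased of 5 genes, endothelial markers 1 and 2 of 3, adipocyte markers 1 and 2 of 3, and macrophage and Schwann cell markers none of 3 each. In pooled cultures, a change in the share of a cell type and a change of the mark within cells cannot be told apart, and the part of either in the regions above was not tested.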

How the data were processed

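CUT&RUN libraries for H3K27ac and control IgG had been made from Nrip1 KO and control primary myotubes, 2 libraries per group and 8 in all. Paired reads were aligned to mm10 with BWA-MEM2 (2.2.1) and broad peaks were called and merged with HOMER (4.11), per the methods and the submitters' processing notes. The authors deposited 2 lists of intervals, 1 per direction, for regions whose peak intensity differed by at least 2-fold. The use made of replicates and of IgG in calling is not given in the sources used here. The H3K27ac antibody has one supplier in the labels and another in the methods.

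No value per library, fold or depth was used here, so no test between genotypes was made and the IgG background is unknown. The score and strand columns hold 1 value throughout and were not used, and 1 region outside the assembled chromosomes was dropped. Intervals were read as half-open and are given counted from 1. Genes and starts came from GENCODE M21 and sequence from GRCm38.p6, which corresponds to mm10. No region ran past the end of its chromosome.

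The 10 genes, the lists and the rules were chosen with earlier results of these data known. A region was assigned to a gene when its centre lay in the gene or within 200 kb of any of its transcript starts, or when that gene had the nearest protein-coding start. Shares carry exact (Clopper-Pearson) 95% intervals for counting error over regions only. Regions of 1 locus are neighbours, not independent units. All 10 genes are named, with up to 3 neighbouring genes for each and up to 4 genes per list and direction, of which 1 is not reported here. The assignment and the motif search were tested on simulated data. Python 3.11.15, numpy 2.4.6, scipy 1.17.1 and pysam 0.24.0 were used.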

Additional observations from a re-analysis of the deposited data

How the results depend on the processing

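The main counts were 30 regions, 28 of them decreased. They depended most on the window around each start. With 500 kb in place of 200 kb there were 78 regions, 65 decreased and 13 increased (16.7%, compared with 35.0% of all regions). With that window 5 genes had an increased region, and the share of all protein-coding genes was not computed for it. Without a window, 6 regions remained, 6 decreased and 0 increased (0%), at 5 genes with a decreased and 0 with an increased region. Among regions at least 1 kb wide there were 16, with 16 decreased and 0 increased (0%), and 0 genes had an increased region. The 2 increased regions were 898 and 501 bp wide, so this cut removed both. Without Jun and Fosb there were 0 increased regions (0%) at 0 genes, which was fixed in advance because only Fosb had increased regions. AP-1 motifs were found in 10.7% of the decreased regions when only the central 500 bp were searched, a shorter sequence. The same search found them in 12.8% of all decreased and 16.5% of all increased regions. The share of the family was thus the lowest of the 3, whereas over the whole width it was the highest. Outside chromosomes 4, 7, 10 and 16, an alternative chosen after seeing the data, 4 AP-1 targets had an increased region. In all, 58 of 78 comparisons with an alternative stayed within 1.5 times the main count, within the interval of the share or within 1 SD. Several alternatives changed few regions, and the interval of the share was wide (0.818 to 22.1). The 16.7% at 500 kb fell within it although increased regions went from 2 to 13. This tally is therefore a weak measure of stability. No gene changed direction under any alternative that gave it a region. No paired analysis was possible because the lists hold no value per library, and for the same reason no replicate could be left out. Depth and IgG background are unknown, so a region missing from the lists may be unchanged, under 2-fold or too shallow to call.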
